A study of Mus musculus with 6 samples.

Results

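Genes of the AP-1 and immediate early response were followed nucleus by nucleus in organoids of the mouse jejunum, cultures in which crypt epithelium grows and differentiates in a dish. The set was given by name and not by measured values. It held 9 genes, the Fos family (Fos, Fosb, Fosl1, Fosl2), the Jun family (Jun, Junb, Jund), Atf3 and Egr1. Values were found for 8 of the 9 among the 31319 genes of the files, and Fos was not analysed here. The organoids came from C57BL/6 mice of 8 to 12 weeks and received conditioned medium of either of 2 kinds, QCM from quiescent and SCM from senescent fibroblasts, with 3 samples per medium and a total of 38154 nuclei. The fibroblasts were mouse embryonic fibroblasts, as the study's methods state. Quiescence was induced by serum deprivation, and senescence by X-ray irradiation or doxorubicin. The labels do not say which of the latter was used for these samples. They also do not say whether samples of a medium came from separate mice, so p-values measure the spread between these samples.

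AP-1 is a family of dimers in which a Fos protein pairs with a Jun protein, or Jun proteins pair with each other, through leucine zippers, and the dimer binds the DNA site TGACTCA. Several of these genes are immediate early genes, which growth factors, wounding and stress switch on within minutes from preexisting factors such as SRF, and whose RNAs are short-lived. Egr1 is a zinc finger factor of the same early wave, and Atf3 is a stress-induced leucine zipper factor that can pair with Jun proteins. Their RNA can also rise when tissue is handled, so heat shock genes were read beside them.

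The 6 libraries differed in size and depth. They held 430 nuclei (SCM replicate 1) to 10833 nuclei (SCM replicate 3), and 4071926 to 41035733 UMIs (unique molecular identifiers, each counting 1 captured RNA molecule). The median per nucleus was 8260 UMIs in QCM replicate 1 and 1578 to 3156.5 in the other libraries. Ribosomal protein genes took 14.2% of the UMIs of QCM replicate 1 and 2.64% to 10.4% of the others. Of the 430 nuclei of SCM replicate 1, 175 (40.7%) had a cell barcode that also occurred in QCM replicate 1, against 0 to 36 shared barcodes in the other pairs of libraries. The members were therefore also compared between the media without these nuclei, in all nuclei, within clusters and by share of nuclei. Co-detection and the member counts of clusters 3 and 7 were computed without them too. The gene lists and the other values by cluster were not. Epithelial marker genes summed to 2860 to 4268 CPM (counts per 1000000 counts of a sample). The fibroblast, immune and endothelial lists summed to 0.982 to 6.93 CPM.

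The first comparison asked whether these genes differed between SCM and QCM in the organoids as a whole, with the UMIs of each sample summed. No member passed the test, and in each the samples of the media overlapped. Summed counts cannot tell fewer nuclei that use a gene from less RNA per nucleus.

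Among the Fos family, Fosl1 and Fosl2 encode Fra-1 and Fra-2, which lack the strong activation domain of Fos. Fosl2 had 43.7, 41.6 and 44.7 CPM in QCM replicates 1, 2 and 3. It had 69.3, 51.9 and 38.1 CPM in the SCM replicates. SCM replicates 1 and 2 lay above the QCM samples and SCM replicate 3 below them. On the log2 scale SCM differed from QCM by 0.10 ± 0.23 (SE; edgeR adjusted p = 0.958), and the 95% interval of the fold ran from 0.745 to 1.55. Fosl1 was sparse, with 559 UMIs in all, and had 3.27, 3.17 and 4.92 CPM in QCM and 4.17, 6.11 and 3.96 CPM in SCM. Its log2 ratio was 0.17 ± 0.33 (SE; edgeR adjusted p = 0.948). Fosb had 28 UMIs in all 6 libraries, too few to be tested, with 8, 3 and 9 UMIs in QCM and 0, 5 and 3 in SCM. The count of 0 in SCM replicate 1 allows a level of up to 0.737 CPM by counting error alone (3 counts of the total).

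The Jun family gives the obligate partner of the Fos proteins. Jun had 87.2, 60.9 and 35.1 CPM in QCM replicates 1, 2 and 3, and 84.0, 58.9 and 40.6 CPM in SCM replicates 1, 2 and 3. The means of the media were nearly alike (61.1 ± 26.1 and 61.2 ± 21.8 CPM, SD, n = 3), and the samples with the same number lay closer together than the samples of a medium. The log2 ratio of Jun was -0.23 ± 0.40 (SE; edgeR adjusted p = 0.947), and the fold interval ran from 0.447 to 1.64. Junb, which in many settings restrains proliferation, had 40.0, 24.3 and 39.9 CPM in QCM and 55.3, 31.7 and 35.8 CPM in SCM. Its log2 ratio was 0.028 ± 0.31 (SE; edgeR adjusted p = 0.996). Jund, the family member that resting cells express most steadily, had 134.9, 88.7 and 107.5 CPM in QCM and 121.6, 102.2 and 94.0 CPM in SCM. Its log2 ratio was -0.26 ± 0.25 (SE; edgeR adjusted p = 0.929), and the fold interval ran from 0.555 to 1.26. In Jun and Junb, the levels of the 3 replicate numbers did not overlap, whichever medium the samples came from, narrowly so in Junb. This was so for 10.4% of all genes tested, and the cause was not tested.

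Atf3 and Egr1 also overlapped between the media. Atf3 had 11.7, 8.07 and 9.74 CPM in QCM and 8.10, 12.1 and 8.47 CPM in SCM, with a log2 ratio of -0.23 ± 0.30 (SE; edgeR adjusted p = 0.930). Egr1 had 18.0, 9.31 and 13.7 CPM in QCM. It had 17.7, 13.0 and 12.1 CPM in SCM, with a log2 ratio of -0.16 ± 0.34 (SE; edgeR adjusted p = 0.955). The mean of Egr1 was 13.7 CPM in QCM and 14.3 CPM in SCM, so its uncalled estimate and its means differed in direction. The SCM range of Egr1 lay inside its QCM range, and the ranges of Atf3 were nearly the same.

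**Figure D1:**
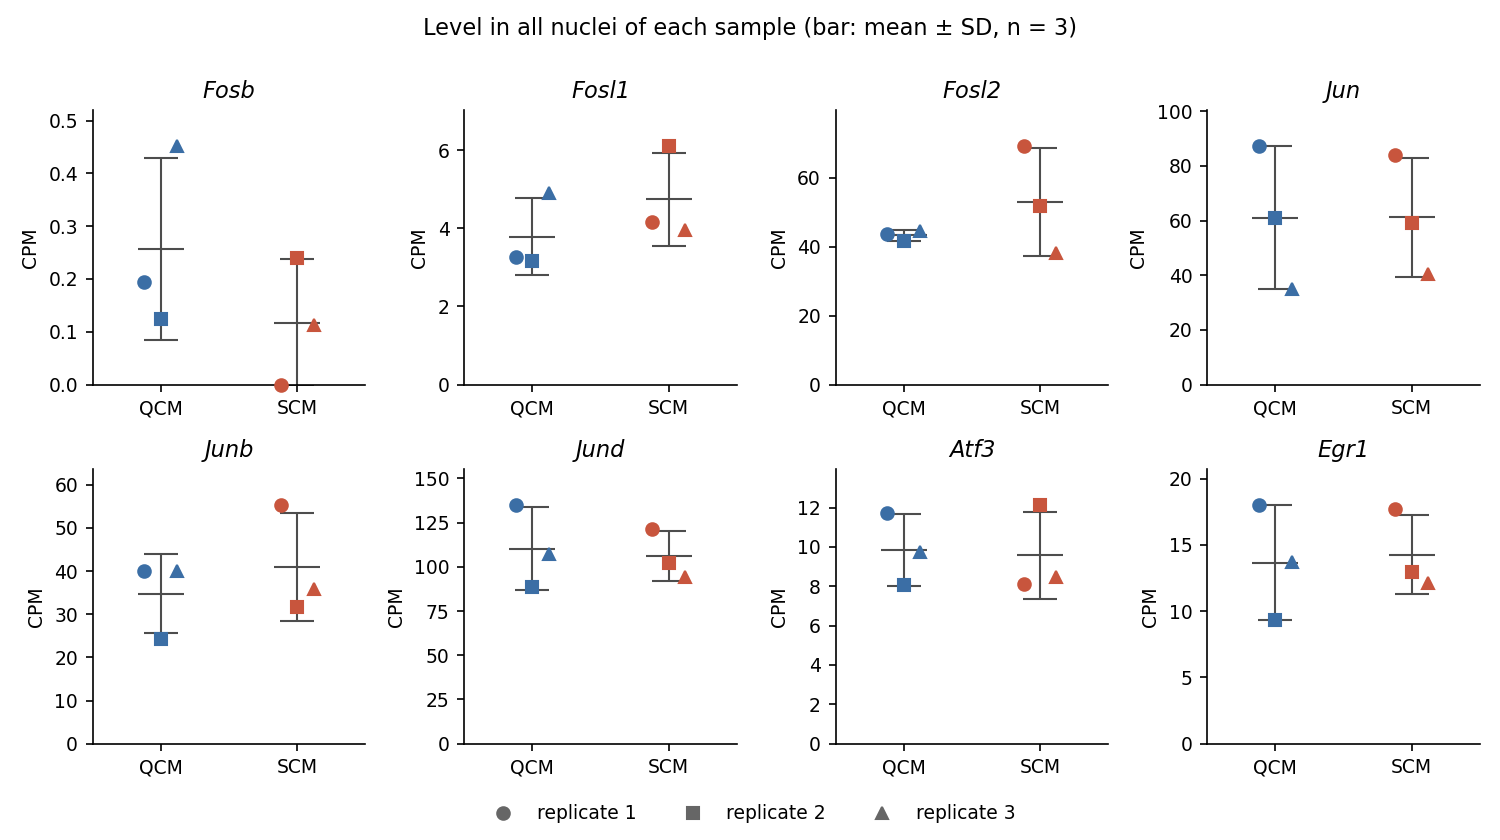
Level of each gene (CPM, y axis from 0) in the summed nuclei of each sample, by medium, with the symbol giving the replicate number and bars giving mean ± SD (n = 3; the lower bar of Fosb in SCM is cut at 0). The media overlap in every panel, and for Jun the samples order by replicate number, from 87.2 and 84.0 CPM in replicates 1 to 35.1 and 40.6 CPM in replicates 3.

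Of the 7 members with enough counts, edgeR's quasi-likelihood test with Benjamini-Hochberg adjustment called 0, and 0 had an unadjusted p under 0.05. It called 0% of the 19046 genes tested, of which 4.55% had an unadjusted p under 0.05. DESeq2 called 0.131% of the genes it tested and none of the members. The median log2 ratio was -0.16 over the 7 members and -0.012 over all genes tested, and 3 of the 7 estimates were higher in SCM, against 48.6% of all genes. With counts simulated for the comparison of all nuclei, the test called 7 genes that had not been changed. It recovered 6% of the 100 genes changed 2-fold and 53% of the 100 changed 4-fold. These shares are over genes at large, so they do not give what could be called for the members. The upper limits of the members' fold intervals from edgeR ran from 1.26 (Jund) to 1.91 (Fosl1). The lower limits were 0.447 for Jun and 0.516 (Egr1) to 0.745 (Fosl2) for the others. In this fit, a 2-fold rise lay outside the intervals of the 7 members, and a 2-fold fall lay inside that of Jun alone. Changes within these limits were not excluded.

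The wider pathway was read from lists of genes. Other leucine zipper genes whose proteins can pair with Fos or Jun proteins were counted in 13 of 13 cases and had enough counts for the test in 11. Of these, 7 had a higher estimate in SCM and 0 were called. Their most abundant members were Atf2, with 101 ± 27.3 CPM in QCM and 126 ± 10.9 CPM in SCM (SD, n = 3), Atf4, the effector of the integrated stress response, with 107 ± 16.9 and 89.8 ± 18.2 CPM, and Mafg, with 81.6 ± 19.2 and 94.4 ± 14.2 CPM. All 3 overlapped between the media.

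The kinases and transcription factors upstream of the early genes had 19 of 19 members tested, 14 with a higher estimate in SCM and 0 called. Among the most abundant were Mrtfb and Mrtfa, actin-regulated coactivators of SRF. Mrtfb had 249 ± 66.8 CPM in QCM and 329 ± 41.0 CPM in SCM, and Mrtfa had 179 ± 71.0 and 224 ± 29.8 CPM (SD, n = 3). Elk3, a ternary complex factor that sits with SRF on early gene promoters and was picked out after its values were seen, had 4.12, 5.77 and 6.67 CPM in QCM. It had 20.1, 23.6 and 10.9 CPM in SCM. Its media did not overlap, as in 2 of the 19 upstream genes (Elk1 and Elk3) and 4.99% of all genes tested with SCM higher, and its log2 ratio was 1.56 ± 0.31 (SE; edgeR adjusted p = 0.927). It was estimated higher in SCM in 5 of the 5 clusters in which it could be tested, at log2 ratios of 0.64 to 1.38, with 0 called and a smallest edgeR adjusted p of 0.339. The clusters divide the same nuclei that picked Elk3 out, so nothing further is read from this count.

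The feedback genes, phosphatases and inhibitors that MAP kinase signalling induces against itself, had 7 of 11 estimates higher in SCM and 0 called. Spred2, an inhibitor of the Ras to ERK cascade, was the most abundant, with 174 ± 38.4 CPM in QCM and 232 ± 12.8 CPM in SCM (SD, n = 3; log2 ratio 0.28, edgeR adjusted p = 0.927). Its media did not overlap, with SCM higher, as in 1 of the 11 feedback genes and 4.99% of all genes tested. Dusp16, a phosphatase that acts on JNK, had 173 ± 32.0 and 215 ± 67.1 CPM, and Spred1 had 92.8 ± 24.8 and 122 ± 6.65 CPM. The other immediate early genes had 20 of 24 members tested. Of these, 9 had a higher estimate in SCM and 0 were called, with a median log2 ratio of -0.11. The most abundant were Klf10 (76.3 ± 16.8 CPM in QCM and 96.6 ± 22.5 CPM in SCM), Mcl1 (69.9 ± 19.1 and 80.9 ± 7.48 CPM) and the antiproliferative gene Btg2 (62.1 ± 20.2 and 62.1 ± 4.63 CPM), each given as mean and SD of 3 samples.

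Genes described as AP-1 targets in epithelia and tumours were the list with the highest median, at a log2 ratio of 0.34. Of the 11 tested, 7 had a higher estimate in SCM and 0 were called. The media did not overlap, with SCM higher, in 5 of the 11, among them Ccnd1, Cd44, Plaur and Hbegf, which are named after their values were seen. This was so for 4.99% of all genes tested, and the opposite order held for 2.09% of all genes and for 0 of the 11. The list was chosen with earlier results of these data known, so nothing is read from this count. Cd44, which encodes a hyaluronan receptor, had 70.9, 74.6 and 74.7 CPM in QCM. It had 142.2, 216.6 and 118.0 CPM in SCM, with a log2 ratio of 0.94 ± 0.24 (SE; edgeR adjusted p = 0.927). Cd44 was estimated higher in SCM in 13 of 13 clusters, at log2 ratios of 0.27 to 1.38, with 0 called and 8 at an unadjusted p under 0.05. Over all genes, 5.76% of the combinations of gene and cluster had an unadjusted p under 0.05. The clusters divide the same nuclei that picked Cd44 out, so nothing further is read from its counts. The others named were less uniform, with Hbegf higher in 9 of 10 clusters, Ccnd1 in 10 of 12 and Plaur, the receptor of urokinase, in 4 of 7. Hbegf, an EGF receptor ligand, had 11.3, 12.4 and 9.08 CPM in QCM and 14.7, 18.4 and 14.7 CPM in SCM, with a log2 ratio of 0.38 ± 0.23 (SE; edgeR adjusted p = 0.927). Among the abundant targets, Areg, another ligand of that receptor, had 120 ± 11.1 CPM in QCM and 134 ± 29.2 CPM in SCM, and Vegfa had 96.8 ± 18.7 and 102 ± 3.27 CPM (SD, n = 3). The fetal-like marker list moved in the same samples, with a summed level of 61.6 to 110 CPM in QCM and 176 to 656 CPM in SCM, and its part in the target values was not tested.

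Heat shock genes had the lowest median, -0.58, with 2 of 9 estimates higher in SCM, 0 called and 0 that did not overlap between the media. Their summed level was 2403 CPM in QCM replicate 1 and 959 to 1356 CPM in the other 5 samples. The most abundant were the mitochondrial chaperones Hspe1 (508 ± 244 CPM in QCM and 268 ± 102 CPM in SCM) and Hspd1 (409 ± 137 and 315 ± 26.8 CPM), and the cytosolic chaperone Hspa8 (352 ± 181 and 252 ± 68.6 CPM), each as mean and SD of 3 samples. The heat shock sum and Jun did not order the samples alike, and the part of handling in either was not tested. QCM replicate 1 was highest of the QCM samples in both, but QCM replicate 2 had more Jun and a lower heat shock sum (1158 CPM) than QCM replicate 3 (1356 CPM), and of the SCM samples replicate 1 was highest in Jun and replicate 3 in the heat shock sum (1167 and 1278 CPM).

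**Figure D2:**
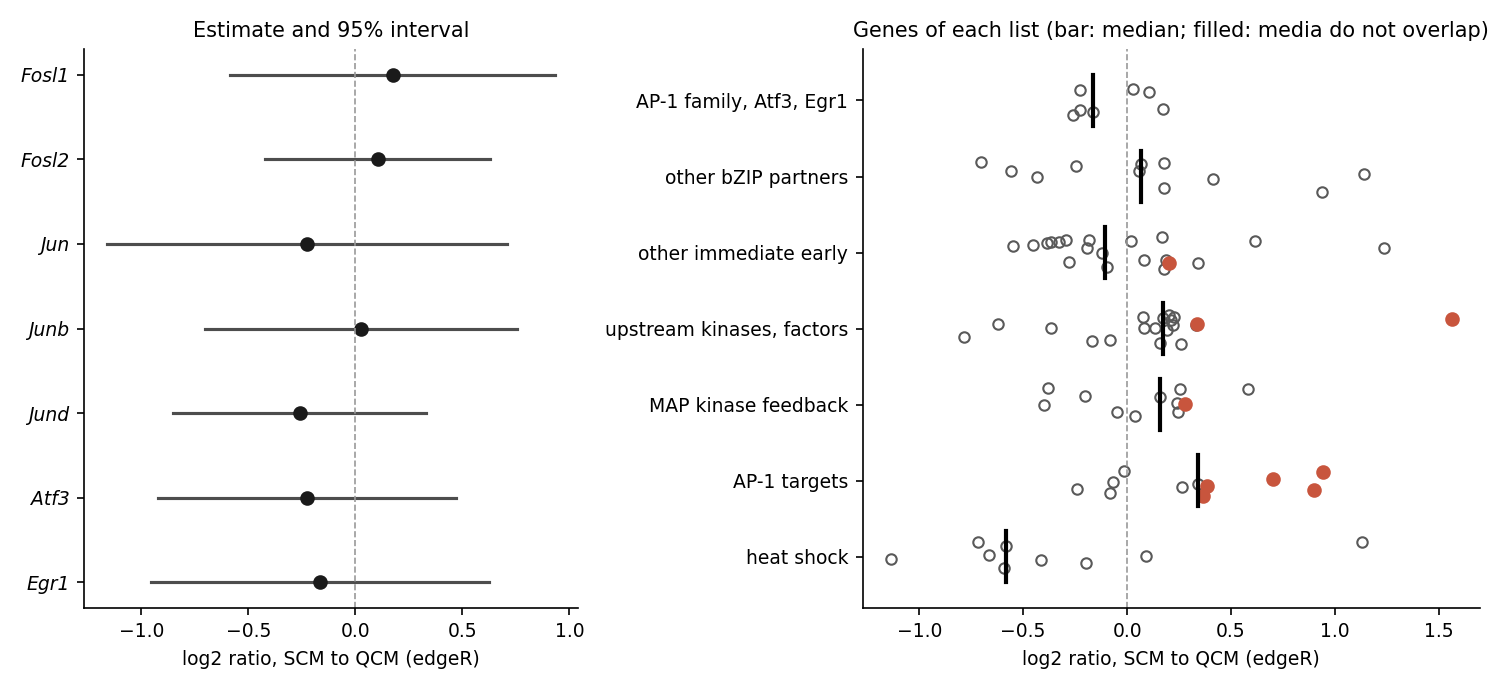
Left, log2 ratio of SCM to QCM of each gene in all nuclei, with its 95% interval from edgeR. Right, log2 ratios of the genes of each list (open circles, or filled where the CPM of the media do not overlap) with the list's median as a bar. All 7 intervals of the left panel span 0, and the target list has 5 filled circles and a median of 0.34.

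The level of each member was then described over the 15 deposited clusters, which carry numbers and no names. The clusters were made from the genes of these nuclei, so these values are a description with no test. The 14 clusters with at least 10 nuclei in at least 4 samples were used. Cluster 7, with 1442 nuclei (3.78% of all), had the highest mean level of Fosb, Fosl1, Fosl2, Jun, Junb and Jund, and the next highest of Atf3 and Egr1. Cluster 3, with 2339 nuclei, had the highest level of Atf3 and the next highest of Jun and Junb.

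Cluster 7 was fetal-like by its markers, with Clu, Anxa1, Anxa3, Anxa8, Ly6a and Msln, 6 of 8 in the list, at least 2-fold above the other nuclei at 5 CPM or more. Such markers are known from the repair state of the gut epithelium. Its leading genes included Syt16, Cdh13 and the matrix genes Col4a1, Col4a2 and Fn1, while 0 of 8 fibroblast markers and 1 of 8 immune markers (Csf1r) were raised. So were 2 of 7 goblet markers (Clca1 and Zg16) and 2 of 8 tuft markers (Avil and Ptgs1). Cluster 3 was led by replication-dependent histone genes such as Hist1h2ac and Hist1h2bh, reached no marker list and stays unnamed. Of the other clusters, 6 was goblet and Paneth-like, 8 enterocyte-like, 9 and 10 enteroendocrine-like and 11 tuft-like.

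**Figure D3:**
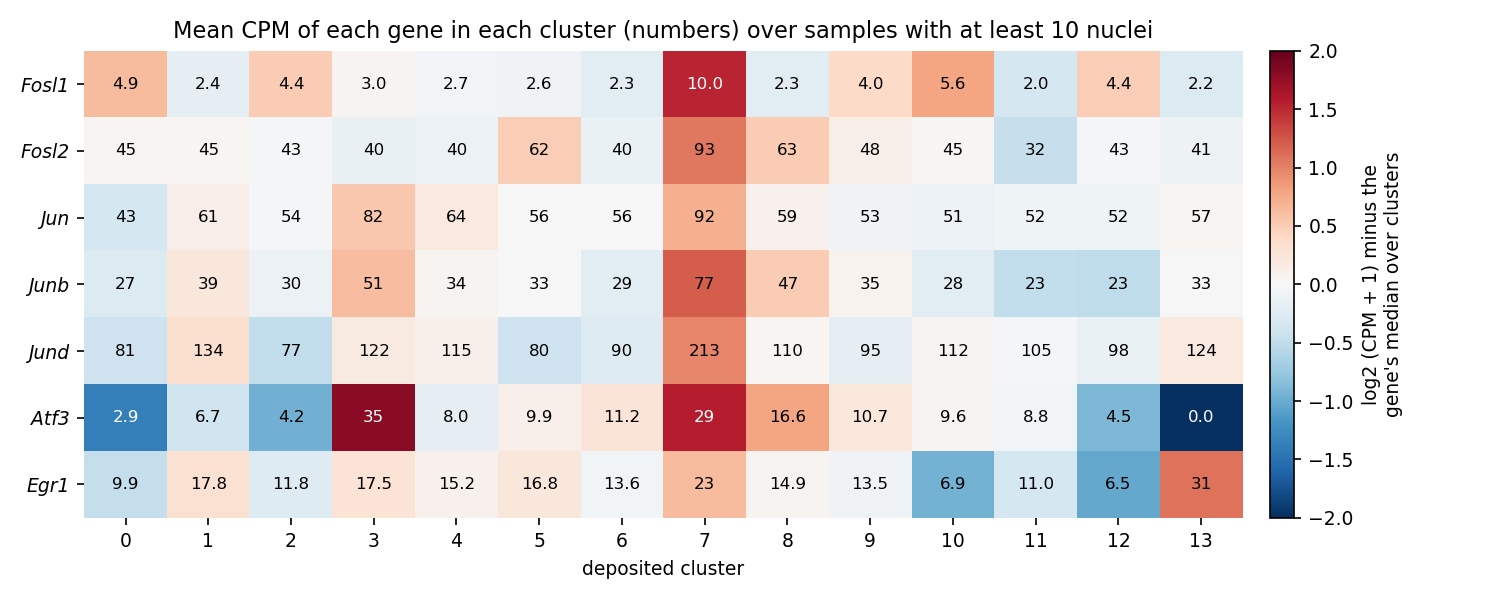
Mean CPM of each gene (numbers) in the 14 clusters with at least 10 nuclei in at least 4 samples. Colour gives log2(CPM + 1) minus the gene's own median over clusters, so it compares clusters within a row and not genes with each other. Cluster 7 holds the highest value of Fosl1, Fosl2, Jun, Junb and Jund, and cluster 3 that of Atf3.

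By summed CPM, Jund in cluster 7 lay above the next cluster by more than the spread of samples, which its share of nuclei at equal depth did not show. It had 184.4, 199.9 and 192.0 CPM in the nuclei of cluster 7 of QCM replicates 1, 2 and 3, and 286.4, 241.0 and 174.6 CPM in those of the SCM replicates. The mean of 213 ± 42.6 CPM (SD, n = 6) compares with 134.5 ± 21.5 CPM in cluster 1, the next in order. Junb in cluster 7 had 68.6, 49.3 and 82.9 CPM in QCM and 117.2, 77.3 and 69.2 CPM in SCM, with a mean of 77.4 ± 22.6 CPM against 50.9 ± 23.8 CPM in cluster 3. For the other members, the cluster at the top and the next in order differed by less than the larger of their SDs. Over the 8 genes, 100 of 104 neighbours in the order of clusters lay within that spread, so most of the order is not resolved.

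Fosl2 had a mean of 93.2 CPM in cluster 7 and 63.1 CPM in the enterocyte-like cluster 8, and 31.7 CPM in the tuft-like cluster 11, the lowest. In cluster 7 it ranged from 64.4 to 81.1 CPM in 5 samples and reached 208 CPM in SCM replicate 1, where the cluster held 17 nuclei. Jun had a mean of 91.7 CPM in cluster 7, 81.6 CPM in cluster 3 and 43.4 CPM in cluster 0, the largest cluster and the lowest in Jun. Fosl1 had 10.0 CPM in cluster 7, from 0 in SCM replicate 1 to 19.98 CPM in SCM replicate 2, and 2.00 to 5.58 CPM elsewhere. Fosb rested on 4 UMIs in cluster 7, and its place there is not resolved by counting.

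Atf3 was the only member with its highest mean in cluster 3. There it had 28.3, 38.5 and 34.3 CPM in QCM and 25.9, 52.7 and 28.6 CPM in SCM. Its mean there was 34.7 ± 9.93 CPM (SD, n = 6), against 29.3 ± 11.0 CPM in cluster 7, 16.6 CPM in cluster 8 and 2.94 CPM in cluster 0. All 6 samples of cluster 3 lay above the highest sample of cluster 0, at 6.32 CPM. Egr1 had its highest mean in cluster 13, at 31.3 CPM, which rested on 11 UMIs in 4 samples. Cluster 7 followed at 22.5 ± 8.80 CPM, and cluster 1 at 17.8 ± 5.41 CPM (SD, n = 6).

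The promoters of Jun, Junb and Atf3, the members that cluster 3 and cluster 7 shared at the top, are shown with the letters searched in capitals. Windows of 250 bases before to 50 bases after an annotated start were taken from a table of RefSeq sequences (GRCm38.p6) for 6 of the 8 genes, and Fosl1 and Egr1 were not analysed here.

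Jun, chr4:95052173-95052472, minus strand: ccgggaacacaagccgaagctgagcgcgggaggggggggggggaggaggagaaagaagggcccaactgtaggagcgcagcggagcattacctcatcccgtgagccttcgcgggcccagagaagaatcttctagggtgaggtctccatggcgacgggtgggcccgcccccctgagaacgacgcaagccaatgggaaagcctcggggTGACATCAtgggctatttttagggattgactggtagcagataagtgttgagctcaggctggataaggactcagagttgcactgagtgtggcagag
Junb, chr8:84978699-84978998, minus strand: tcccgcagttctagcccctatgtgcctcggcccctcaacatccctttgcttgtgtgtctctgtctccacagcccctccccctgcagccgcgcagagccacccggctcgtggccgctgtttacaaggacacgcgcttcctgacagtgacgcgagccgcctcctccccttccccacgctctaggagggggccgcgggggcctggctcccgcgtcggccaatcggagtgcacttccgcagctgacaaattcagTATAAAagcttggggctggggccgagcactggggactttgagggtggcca
Atf3, chr1:191183284-191183583, minus strand: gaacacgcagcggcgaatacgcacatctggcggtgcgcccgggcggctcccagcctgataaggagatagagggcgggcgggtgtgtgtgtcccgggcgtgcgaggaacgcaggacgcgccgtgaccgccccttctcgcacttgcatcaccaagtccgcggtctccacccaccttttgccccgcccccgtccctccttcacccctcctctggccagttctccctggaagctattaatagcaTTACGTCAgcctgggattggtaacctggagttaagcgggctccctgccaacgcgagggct

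The AP-1 site TGACTCA, the cyclic AMP response element TGACGTCA and the CArG box, the SRF site, were searched on both strands, and none was in the 6 windows. They were in 5.20%, 1.79% and 1.63% of the 32851 windows. TATAAA was in the Junb window, at the RefSeq start, and in 13.6% of all windows. After the sequences had been seen, 2 variants of the response element were added. TGACATCA lay 45 bases before the start in the Jun window, and in 3.62% of all windows. TTACGTCA lay 10 bases before the start in the Atf3 window, and in 0.499% of all windows. These are matches of letters and not measured binding, and only exact matches were sought. The gene bodies lie on GRCm38 at chr4:95049034-95052222 (Jun), chr8:84974484-84978718 (Junb), chr8:70698949-70700616 (Jund), chr1:191170296-191218039 (Atf3), chr5:32135801-32157842 (Fosl2), chr19:5447547-5455946 (Fosl1) and chr7:19302696-19310051 (Fosb), with Egr1 on chromosome 18. These extents are those of GENCODE, whose outermost start is the RefSeq start for Jun, 30 bases downstream of it for Junb and 1210 bases downstream for Jund, and 34706 bases upstream of it for Atf3, so the windows describe the RefSeq starts alone.

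To keep libraries apart, each cluster was also set against the remaining nuclei of its own sample. In cluster 7, 5 of the 7 members tested between the media (Fosl2, Jun, Junb, Jund and Atf3) lay above the other nuclei in 6 of 6 samples, as did 6.1% of all genes, and 0 lay below in 6 of 6, as did 13.3% of all genes. The clusters were made from the variable genes of the same nuclei, which may include these, so nothing is read from the count. In the shares of all genes below, here and for the other clusters, a level equal to that of the other nuclei was counted as below. The median fold over the samples was 3.48 for Atf3 (2.08 to 4.51), 2.96 for Fosl1, 2.17 for Jund (1.39 to 3.21), 2.13 for Junb (1.76 to 3.39), 1.69 for Fosl2 (1.47 to 3.26), 1.48 for Jun (1.17 to 2.23) and 1.38 for Egr1. Fosl1 and Egr1 lay above in 5 of 6 samples, with SCM replicate 1 as the exception for both. There they had 0 and 2 UMIs in 17 nuclei, so the exceptions are not resolved by counting. Without SCM replicate 1, 7 of 7 members lay above the other nuclei in every sample, as did 10.6% of all genes. Without the nuclei of shared barcodes, SCM replicate 1 kept 8 nuclei of cluster 7, and 2 of 7 members (Fosl2 and Jund) lay above in all 6 samples, as did 4.97% of all genes. In the 5 samples that kept at least 10 nuclei, 7 of 7 members and 10.6% of all genes did.

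In cluster 3, Jun, Jund and Atf3 lay above the other nuclei in 6 of 6 samples, as did 1.71% of all genes. Atf3 was 4.17-fold higher in the median (2.63 to 5.85), Jun 1.40-fold (1.12 to 1.84) and Jund 1.14-fold (1.03 to 1.32), while Fosl2 had a median fold of 0.789. None of the 7 lay below in all 6 samples, as 8.85% of all genes did. Without shared barcodes, where SCM replicate 1 kept 11 nuclei of the cluster, 1 of 7 (Jund) lay above in all samples, as did 1.69% of all genes. In the enterocyte-like cluster 8, Fosl2 and Atf3 lay above in 6 of 6 samples (7.04% of all genes) and none lay below in all 6 (15.3% of all genes). In cluster 0 the order was the opposite, with Jun, Junb, Jund and Atf3 below the other nuclei in 6 of 6 samples (10.7% of all genes) and none above in all 6 (10.1% of all genes).

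**Figure D4:**
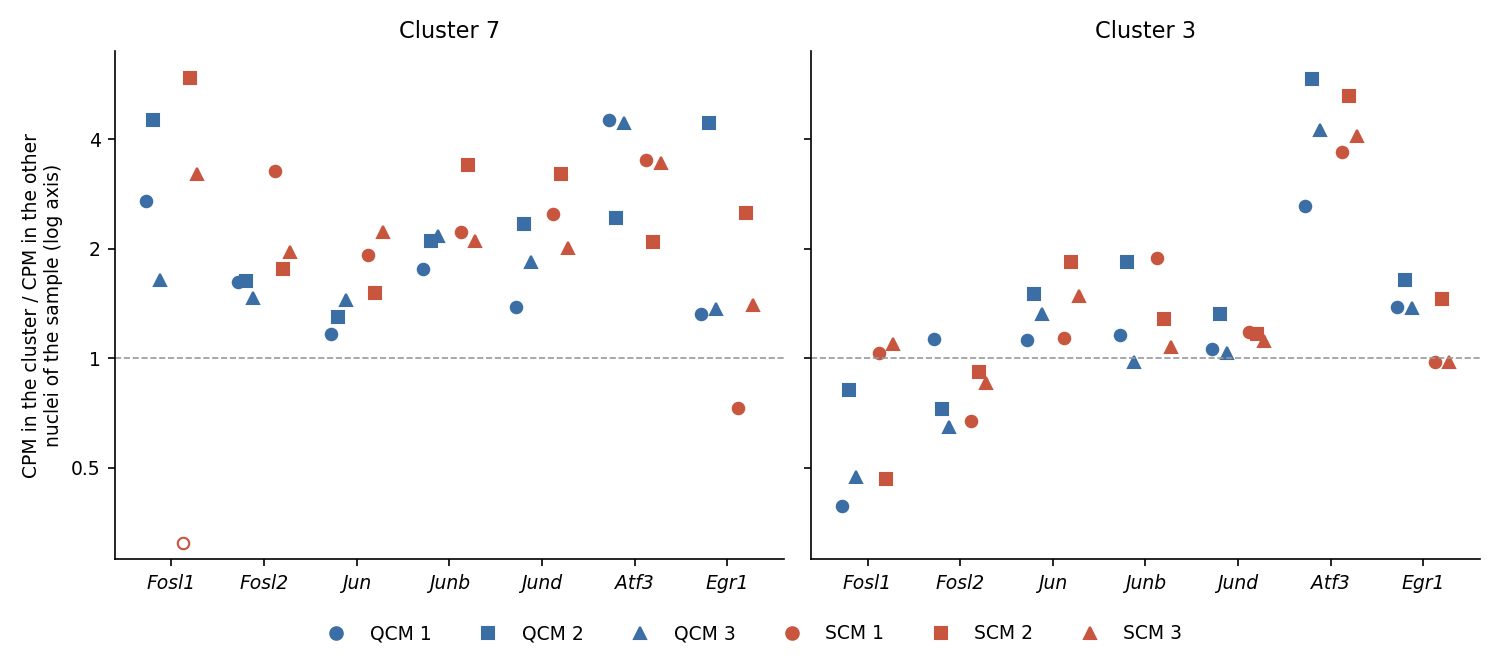
Ratio of the CPM in cluster 7 (left) or cluster 3 (right) to that in the sample's other nuclei, on a log axis, by gene, sample and medium, with an open symbol at the bottom for Fosl1 listed at 0 in SCM replicate 1. In cluster 7 the 6 samples of Fosl2, Jun, Junb, Jund and Atf3 lie above 1, and in cluster 3 those of Atf3 lie between 2.63 and 5.85.

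The wider lists were read in the same way in cluster 7. Of the other immediate early genes, 9 of 20 (Ier3, Ier5, Btg2, Klf4, Klf6, Myc, Rhob, Gadd45b and Ccn1) lay above the other nuclei in 6 of 6 samples and 1 (Nr4a2) lay below in all 6. Of the targets, 6 of 11 lay above, among them Ccnd1, Cd44, Plaur, Areg and Lif. Of the feedback genes, 4 of 11 (Dusp1, Dusp4, Dusp6 and Dusp10) lay above. Upstream genes had 1 of 19 above (Elk3) and 1 below (Mapk14), partners 2 of 11 above (Creb5 and Mafk), and heat shock genes 1 of 9 above (Hsp90aa1) and 1 below (Hspe1). In cluster 3, 4 of 20 other immediate early genes (Ier2, Arc, Zfp36 and Ccn1) lay above in all samples, with 1 of 11 feedback genes (Dusp1) and 0 of 9 heat shock genes. Targets had 4 of 11 below there in all samples (Plaur, Ereg, Vegfa and Il11) and 2 above (Cd44 and Hmga1). Upstream genes had 2 of 19 below (Elk3 and Mrtfa) and partners 2 of 11 below (Creb5 and Maf), and 0 of either lay above. Of all genes, 8.85% lay below or equal in cluster 3 and 1.71% above, so nothing is read from the direction. The shares of all genes are those given above for each cluster. The list counts were not repeated without shared barcodes, where the members above in all samples fell to 2 of 7 in cluster 7 and 1 of 7 in cluster 3.

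The genes whose mean level over the 14 clusters was most like that of a member were found by Pearson's r of log2(CPM + 1) over clusters, among genes with a mean of at least 10 CPM. Clusters share their libraries, so r is a description. For Jun the most like of 10241 genes was another member, Junb (r = 0.88), followed by the keratin gene Krt23 (0.85) and Tcim (0.85). Junb was most like Anxa10 (0.91), the ephrin receptor gene Epha2 (0.90) and Tcim (0.88). Jund was most like the epithelial 14-3-3 gene Sfn (0.96), Krt8 (0.95) and S100a6 (0.94). Fosl2 was most like Emp1 (0.96) and Paqr8 (0.93), and Fosl1 was most like Egfr, the EGF receptor gene (0.88), Yy1 (0.86) and Stn1 (0.84). Atf3 was most like Tlcd1 (0.91), Atg9b (0.88) and Cmas (0.86), and Egr1 was most like Smim15 (0.87), Bad (0.83) and Zc3h15 (0.82). Among members without Fosb, r ran from -0.22 (Fosl1 and Egr1) to 0.88 (Jun and Junb). Jun and Jund had 0.79, Junb and Jund 0.74 and Fosl2 and Junb 0.73, while Atf3 and Egr1 had -0.056.

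The media were next compared within each cluster, which sets a change inside a cluster apart from a change in the mix of clusters. A fit was possible in 13 clusters, with 71 pairs of member and cluster tested. edgeR called 0 of the 71, as it called 0% of all 130109 pairs of gene and cluster, and the smallest adjusted p of a member was 0.443. At an unadjusted p under 0.05 there were 5 member pairs, against 5.76% of all pairs. DESeq2 called 0 member pairs and 0.0507% of all the pairs it tested. The estimate was lower in SCM in 51 of the 71 pairs, which share the same 6 samples, and in 50.7% of all pairs. With library size as the only scaling, 45 of the 71 were lower, and no share of all pairs is given for that scaling.

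Jund had 11 of 13 estimates lower in SCM, with a median log2 ratio of -0.46. In the goblet and Paneth-like cluster 6 it had a mean of 105 CPM in QCM and 75.2 CPM in SCM, with a log2 ratio of -0.56 ± 0.21 (SE; edgeR adjusted p = 0.892). In cluster 5 it had 101 and 59.6 CPM (log2 ratio -0.77 ± 0.31, SE; edgeR adjusted p = 0.989). Jun had 10 of 12 estimates lower, down to -1.40 ± 0.61 (SE; edgeR adjusted p = 0.824) in the tuft-like cluster 11, where it rested on 84 UMIs. Egr1 had 9 of 10 and Atf3 6 of 9 estimates lower, while Fosl2 had 6 of 12 and Junb 7 of 12. Some estimates differed in direction from the mean CPM. Egr1 in cluster 1 had means of 16.2 CPM in QCM and 19.4 CPM in SCM, with a log2 ratio of -0.21 ± 0.46 (SE; edgeR adjusted p = 0.902). The highest estimates were those of Atf3 in the enteroendocrine-like cluster 9, at 1.17 ± 0.57 (SE; edgeR adjusted p = 0.966) on 39 UMIs, and of Junb in cluster 10, at 1.153 ± 0.49 (SE; edgeR adjusted p = 0.638) on 40 UMIs. The latter is 1 of the 5 pairs with an unadjusted p under 0.05, of which the other 4 (Jun in clusters 9 and 11, Jund in clusters 5 and 6) were lower in SCM. Without QCM replicate 1, 36 of 68 member pairs and 51.6% of all pairs were lower in SCM.

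In the fetal-like cluster 7, which enters with all 6 samples, the Fos and Jun family estimates were above 0. The log2 ratio was 0.50 ± 0.39 for Fosl2, 0.43 ± 0.51 for Fosl1, 0.19 ± 0.36 for Jun, 0.14 ± 0.31 for Junb and 0.14 ± 0.25 for Jund (SE), and -0.79 ± 0.38 for Atf3 and -0.47 ± 0.36 for Egr1, with edgeR adjusted p of 0.443 to 0.897. With counts simulated for this cluster, the test called 10 genes that had not been changed. It recovered 10% of the 100 genes changed 2-fold and 82% of the 100 changed 4-fold. The fold of cluster 7 over the other nuclei of its sample did not overlap between the media for Fosl2 (1.47 to 1.63 in QCM, 1.76 to 3.26 in SCM) and Jun (1.17 to 1.45 and 1.51 to 2.23). The same held, with SCM higher, for 3.84% of 18586 genes, and the opposite order held for 0 members and 5.37% of genes. An exact permutation test of 3 against 3 cannot give a p under 0.1, and in SCM replicate 1 the fold rested on 17 nuclei. Without the nuclei of shared barcodes that sample kept 8 nuclei, Jun had a fold of 0.443 in it against 1.20 to 1.45 in QCM, and the media did not overlap for Fosl2 alone (4.09% of genes). In the 5 samples that kept at least 10 nuclei they did not overlap for Fosl2 and Jun (11.9% of genes).

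**Figure D5:**
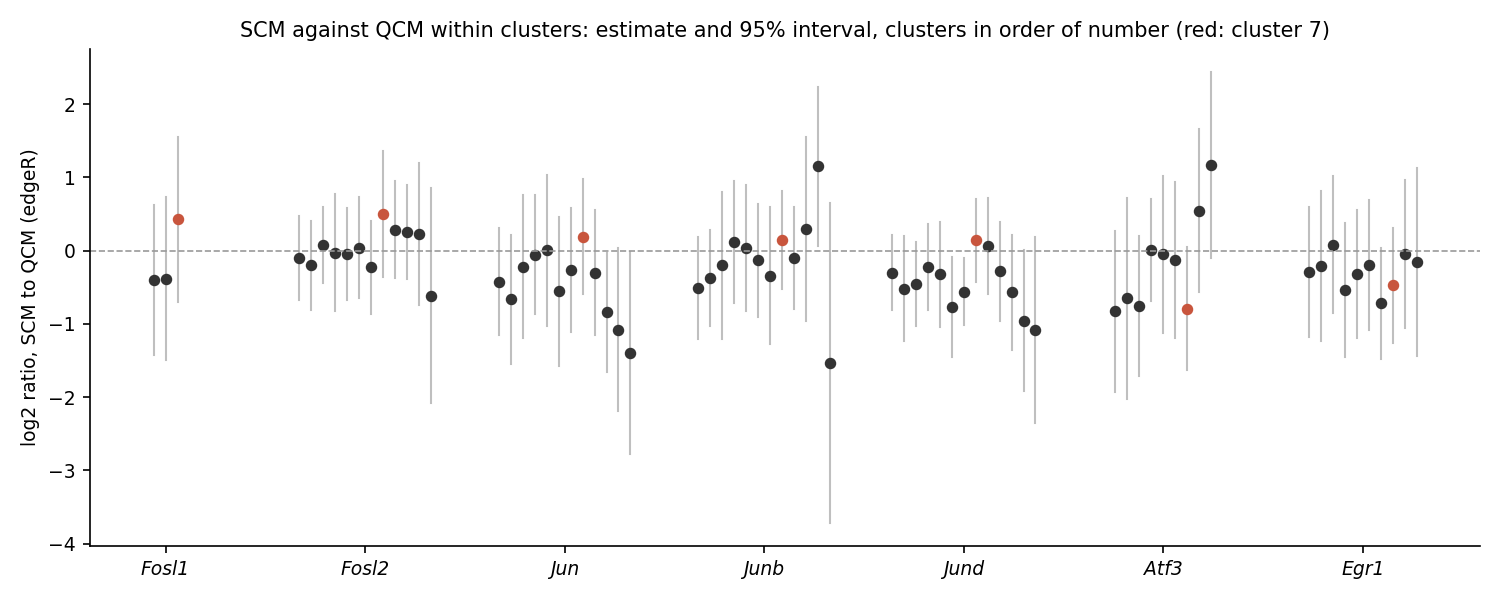
Log2 ratio of SCM to QCM within each cluster in which a gene could be tested, with its 95% interval from edgeR, clusters in order of their number and cluster 7 in red. Estimates of Jun and Jund lie mostly below 0 and those of cluster 7 above 0 for the Fos and Jun families, and none was called.

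The pattern of Jun by replicate number was read cluster by cluster. In 8 of the 9 clusters held by all 6 samples, both replicates 1 lay above both replicates 3. No share of all genes was computed for this count, so nothing is read from it. The count was also not repeated without shared barcodes. There the fold of Jun in cluster 7 over the other nuclei of SCM replicate 1 was 0.443, on 8 nuclei, against 1.92 with all nuclei. In cluster 1, as an example of the pattern, Jun had 94.5 CPM in QCM replicate 1 and 55.6 CPM in SCM replicate 1. Replicates 3 had 39.9 and 41.2 CPM. The value of SCM replicate 1 rested on 9 UMIs, and that sample had 3 UMIs of Jun in cluster 0 and 10 in cluster 8. Its place in these clusters is not resolved by counting. The median UMIs per nucleus of both replicates 1 also lay above those of both replicates 3. The median mitochondrial share rose with the replicate number, opposite to Jun. In QCM and SCM it was 1.01% and 0.80% in replicates 1, 1.83% and 2.21% in replicates 2, and 3.71% and 3.54% in replicates 3. The part of depth, of the mitochondrial share or of the shared barcodes in the pattern was not tested. The ribosomal protein share did not order by number.

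Finally, members were counted nucleus by nucleus. Each nucleus was thinned at random to 1000 UMIs so that depth was alike, which left out 0 to 1876 nuclei per sample. No cell type of this epithelium was taken as lacking these genes, so no background share is given. Jund was detected in 11.0 ± 2.91% of nuclei in QCM and 8.90 ± 1.23% in SCM (SD, n = 3; two-sided exact permutation p = 0.4). Jun was detected in 5.94 ± 2.52% and 6.26 ± 3.00% (exact permutation p = 0.9), Fosl2 in 3.87 ± 0.442% and 4.88 ± 1.49% (exact permutation p = 0.4), and Junb in 3.45 ± 0.555% and 4.17 ± 1.76% (exact permutation p = 0.8). Egr1 was detected in 1.26 ± 0.409% and 1.37 ± 0.420%, Atf3 in 0.857 ± 0.117% and 0.857 ± 0.244%, and Fosl1 in 0.373 ± 0.122% and 0.391 ± 0.0760%, with exact permutation p of 0.7, 1 and 0.9 (n = 3). Fosb was detected in 0.0298 ± 0.00558% and 0.00644 ± 0.0112% (exact permutation p = 0.1, the smallest that 3 against 3 can give), a matter of single UMIs. Its difference was gone at 2000 UMIs. Without thinning, the share of Jund was 36.7 ± 30.4% in QCM and 25.8 ± 10.6% in SCM, with 71.7% in QCM replicate 1 against 17.3% to 37.9% in the others, an order that follows the depth of the libraries.

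By cluster, Atf3 was detected after thinning in 2.94 ± 1.93% of the nuclei of cluster 3 and 2.105 ± 1.41% of those of cluster 7, and in 0.293 ± 0.210% of cluster 0 (SD, n = 6). Jun was detected in 9.40 ± 4.23%, 7.40 ± 2.21% and 4.02 ± 2.86% of these clusters. The order of all clusters by share was not that by CPM for these or the other abundant members. Atf3 was detected in 2.28 ± 2.92% of the nuclei of cluster 11 (n = 5), above cluster 7, and Jun in 3.11% to 3.71% of those of clusters 10, 11 and 12, below cluster 0. Junb was detected in 4.16 ± 3.05% of the nuclei of cluster 7, 5.89 ± 2.08% of cluster 8 and 4.96 ± 0.581% of cluster 3. Fosl2 was detected in 5.39 ± 1.55% of cluster 7 and 6.61 ± 6.58% of cluster 0, and Jund in 13.2 ± 1.32% of cluster 7, 13.5 ± 7.50% of cluster 8 and 12.0 ± 2.43% of cluster 1. Cluster 7 was thus not highest in Junb, Fosl2 or Jund by share at equal depth, and no order of clusters is read from the shares. At least 1 member was detected in 19.6% to 29.3% of the nuclei of a sample, and at least 2 in 1.96% to 5.25%.

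Whether members were found in the same nucleus was asked with the number of nuclei that held both genes, against the number that the shares of each gene within each cluster and sample would give. Of 28 pairs, 9 had an expected number of at least 20 nuclei. Their ratio of observed to expected was 0.841 to 1.54, with a median of 1.22, and it was above 1 in 8 of the 9. For 84 pairs of a member with an upstream gene the median was 0.974, the range was 0.528 to 1.24, and 32 were above 1. The 9 pairs share members, Jund among them, and the same samples, so they are not separate observations. The upstream genes were not matched to the members in level or length. Jund and Atf3 were found together in 50 nuclei against 32.5 expected (ratio 1.54), and more often than expected in 6 of 6 samples. Fosl2 and Jund were found together in 161 nuclei against 131 expected (ratio 1.22), also in 6 of 6 samples. Jund with Egr1 had 1.35, Jund with Junb 1.25, Fosl2 with Junb 1.22, Jun with Junb 1.19, Jun with Jund 1.10, Fosl2 with Jun 1.01 and Jun with Egr1 0.841. The two-sided exact sign-flip permutation test over 6 samples called 0 of the 9 pairs after Benjamini-Hochberg adjustment, with a smallest adjusted p of 0.141. Of the 9 pairs, 2 had an unadjusted exact p of 0.0313, the smallest that 6 samples allow. Pairs with an upstream gene also reached this p in either direction, such as Jund with Mapk3 (ratio 1.19, above expected in 6 of 6 samples) and Jund with Mrtfb (ratio 0.921). Of the 84, 0 were called.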

How the data were processed

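Single-nucleus RNA-seq was done by the authors on droplets with 3′ end chemistry, from frozen organoids. Reads were counted by the authors with Cell Ranger on mm10 (version 2.1.1 per the labels), and nuclei with outlying totals, features or mitochondrial share were removed before deposit. The deposited matrices hold UMI counts per gene and nucleus. The deposited table of nuclei gives the cluster number and the mitochondrial share as a fraction. Gene symbols for 31244 of 31319 identifiers and coordinates came from GENCODE M21 (GRCm38). All 38154 nuclei were used, and no doublet caller was run. UMIs were added up over the nuclei of a sample, or of a cluster within it where at least 10 nuclei were present, and tested with edgeR 4.0.16 (quasi-likelihood, TMM, filterByExpr at 10 counts, Benjamini-Hochberg adjustment, threshold 0.05) in R 4.3.3, and with DESeq2 1.42.0 and limma 3.58.1 as alternatives. Other tables were made in Python 3.11.15. The scripts were tested on simulated data. The members and gene lists were chosen with earlier results of these data known. From each list, called genes and the 3 with the highest mean CPM were named, and for each member the 3 genes most like it over clusters. Genes outside that rule are counted out of their list, or were named after their values were seen. Protein sequences were not used here. Some genes that the rule would name are not reported here.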

Additional observations from a re-analysis of the deposited data

How the results depend on the processing

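The number of members called was 0 in all nuclei and within clusters under every alternative run, and 0 member pairs were called for co-detection in the alternatives that could be tested. The number of all genes called was 21 with DESeq2 in place of 0. The check of whether replicate numbers pair the samples was mixed. Correlations of same-numbered deviations were 0.36, 0.46 and -0.09 for replicates 1, 2 and 3, against -0.46 to 0.16 between samples of different numbers. With a replicate block, log2 ratios were -0.13 for Jun and -0.21 for Jund, 0 genes were called in all nuclei, and 1 pair of gene and cluster was called, no member. Within clusters, pairs of gene and cluster called numbered 39 with DESeq2, 5 with library size alone, 32 without QCM replicate 2 and 3135 with no low-count filter, in place of 0, and held no member pair. With library size as the only scaling, the median of all genes was 0.14 on the log2 scale, 4 of 7 members were higher in SCM, and Egr1 was at 0.045.

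Signs of the uncalled log2 ratios were not stable. With the 6% deepest nuclei left out, Fosl1, Fosl2 and Junb had -0.055, -0.045 and -0.29. With clusters weighted equally, Fosl1 and Jun had -0.18 and 0.057. With replicates 2 and 3 alone, Jun, Atf3 and Egr1 had 0.014, 0.16 and 0.076. With the ribosomal protein share as covariate, Jun, Jund, Atf3 and Egr1 had 0.091, 0.20, 0.14 and 0.50. Without shared barcodes, Junb had -0.062. Leaving out each replicate in turn gave -0.047 to 0.35 (Fosl1), -0.10 to 0.26 (Fosl2), -0.55 to 0.29 (Jun), -0.23 to 0.28 (Junb), -0.46 to 0.057 (Jund), -0.42 to 0.071 (Atf3) and -0.43 to 0.24 (Egr1). The cause was not tested. Without QCM replicate 1, and with the ribosomal covariate, 7 of 7 members were estimated higher in SCM, and 0 of 7 with the deepest nuclei left out.

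Differences in shares of nuclei, in percentage points, also changed sign. Without thinning they were -0.376 (Fosl2), -6.74 (Jun), -2.81 (Junb), -0.954 (Atf3) and -1.58 (Egr1). At 2000 UMIs they were 0.000134 (Fosb), -0.518 (Jun), -0.295 (Atf3) and -0.155 (Egr1). Without shared barcodes they were -0.230 (Jun) and -0.156 (Egr1). Leaving out a replicate gave -0.0345 to 0.0851 (Fosl1), -1.33 to 1.60 (Jun), -0.282 to 1.38 (Junb), -0.123 to 0.120 (Atf3) and -0.126 to 0.327 (Egr1). The number of members whose shares did not overlap, 1 in the report (Fosb), was 0 without thinning and at 2000 UMIs, and 1 to 2 when a replicate was left out, and the share of all genes was not computed for it, so nothing is read from this count. The median ratio of co-detection ranged from 1.09 at 2000 UMIs to 1.26 without QCM replicate 1. Members above the other nuclei in every sample numbered 1 in cluster 3 and 2 in cluster 7 without shared barcodes, and 3 to 4 and 5 to 7 when a replicate was left out. Members whose fold of cluster 7 did not overlap between the media numbered 1 without shared barcodes, and 2 to 4 when a replicate was left out, where the share of all genes also went up, from 3.84% to between 6.45% and 12.0%. The fits without shared barcodes, and the alternatives for clusters 3 and 7, were added after the data had been seen.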
